A study of Mus musculus with 28 samples.

Results

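The genes described here are the FACT subunits *Ssrp1* and *Supt16* and 8 partners of RNA polymerase II during elongation, *Supt6*, *Iws1*, *Supt5*, *Supt4a*, *Paf1*, *Ctr9*, *Leo1* and *Cdc73*. They were taken by symbol and followed by gene identifier through every table used, which gives 10 of the 15384 genes with an expression value. All cells were mouse embryonic stem cells (mESCs) of the E14 line. For RNA-seq, 4 control libraries came from cells given a lentiviral vector with a scrambled hairpin and 4 knock-down (KD) libraries from cells given vectors with hairpins against *Ssrp1*, 48 h after transfection and a further 24 h in 2 µg/ml puromycin, with spike-in RNA added to both groups. The peak lists came from chromatin immunoprecipitation of SSRP1 and of SUPT16 in unmodified mESCs, and the 2 chromatin RNA libraries from the chromatin fraction of the same line. The KD is a pool of transduced cells selected for a short time, not a clone or a deletion.

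FACT is a histone chaperone made of SSRP1 and SUPT16 that loosens and rebuilds nucleosomes while polymerase passes. SPT6, encoded by *Supt6*, is another histone chaperone on the elongating polymerase and works with IWS1. DSIF, the dimer of SPT5 and SPT4, sits on polymerase soon after initiation, first in pausing and then in elongation, and the PAF complex, with PAF1, CTR9, LEO1 and CDC73 as core subunits, rides along and is needed for ubiquitylation of histone H2B.

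The control libraries held 4602278 to 6680919 recovered reads and the KD libraries 9433193 to 19856032, so the KD group was the deeper one, and every member had at least 183 reads in each library. After the authors' scaling to library size, values summed to between 825584 and 909417 in control libraries and to between 1137293 and 1182584 in KD libraries. The paper's methods name TMM, a normalisation that adds 1 factor per library to its size. Such factors, computed from the recovered reads, were 1.11 to 1.21 in control and 0.847 to 0.880 in KD libraries. The unequal sums go with these factors. Marker genes fixed for 6 cell types also moved with the group. The summed value of 8 pluripotent cell markers, which include *Pou5f1*, *Nanog* and *Sox2*, was 1587 to 1714 in control and 4610 to 5111 in KD libraries. Summed values were 43.8 to 57.8 against 12.1 to 13.9 for 4 of 5 fibroblast markers, 42.5 to 62.1 against 17.8 to 19.9 for 4 of 5 primitive endoderm markers, 53.0 to 67.2 against 1.85 to 3.22 for 2 of 4 stratified epithelium markers, 937 to 1272 against 727 to 774 for 5 of 6 trophectoderm markers, and 75.7 to 99.0 against 141 to 152 for 4 of 5 neural progenitor markers. The higher sum of the last list is that of *Tubb3* (log2 fold change 1.69), since *Pax6* (-1.46), *Sox1* (-0.96) and *Nes* (-0.36) were lower in KD. Most of the trophectoderm sum is *Krt8* and *Krt18*, with control means of 675 and 368 and log2 fold changes of -0.36 and -0.69. *Dcn*, *Elf5*, *Foxa2*, *Krt5* and *Trp63* had no row in the expression table, and no marker with a row was at 0 in any library. The part of these marker and depth differences in the changes below was not tested, and in bulk RNA fewer cells of a type and less RNA per cell cannot be told apart.

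The FACT subunit SSRP1 was mapped to the genes of several members, including the gene of its partner SUPT16. The SSRP1 list, a single list that pools the replicates, assigned a peak to 5 of the 10 members, *Supt16*, *Supt5*, *Leo1*, *Cdc73* and *Ssrp1*, beside 36.0% of all 15384 genes. For *Supt16*, an 882 bp peak (chr14:52196662-52197544, mm10) ran from 305 bp upstream to 577 bp downstream of the annotated start and covered 155 exon bases. The *Supt5* peak was 1078 bp long (chr7:28338268-28339346) and spanned its nearest annotated start from 627 bp upstream to 451 bp downstream. A 588 bp peak (chr1:143702496-143703084) reached from 191 bp upstream to 397 bp downstream of a *Cdc73* start. These 3 peaks are the ones that lie across a start.

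At *Leo1*, a 294 bp peak (chr9:75441184-75441478) ended 46 bp upstream of the nearest annotated start and held no exon base. The annotated gene begins further upstream, at chr9:75441015, and has 2 starts, so this peak lay inside the gene. The peak assigned to *Ssrp1* (chr2:85047928-85048222) was of another kind. It began 814 bp past the end of the gene and at least 10477 bp from its starts, and a start of the next gene, *Tnks1bp1*, lay within 1000 bp of it. By distance to a start (within 1000 bp), 4 members carried an SSRP1 peak, beside 26.0% of genes, and *Ssrp1* was no longer among them. No SSRP1 peak was assigned to *Supt6*, *Iws1*, *Supt4a*, *Paf1* or *Ctr9*.

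The SUPT16 list gave peaks to *Cdc73* and *Ctr9*, 2 of 10 members beside 18.6% of all genes. One *Cdc73* peak (chr1:143702300-143702790) began 98 bp downstream of a start and shared 294 bp with the SSRP1 peak, so *Cdc73* was the only member with peaks of both subunits at its start. The other peak listed for *Cdc73* lay 860606 bp past the end of the gene. The *Ctr9* peak (chr7:111024690-111024900) was 210 bp long and ended 4051 bp upstream of the gene. *Supt16*, *Supt5* and *Leo1* had no SUPT16 peak. The SUPT16 list holds fewer peaks, and no list gives heights or values per replicate, so the difference between the subunits at these genes was not tested.

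**Figure D1:**
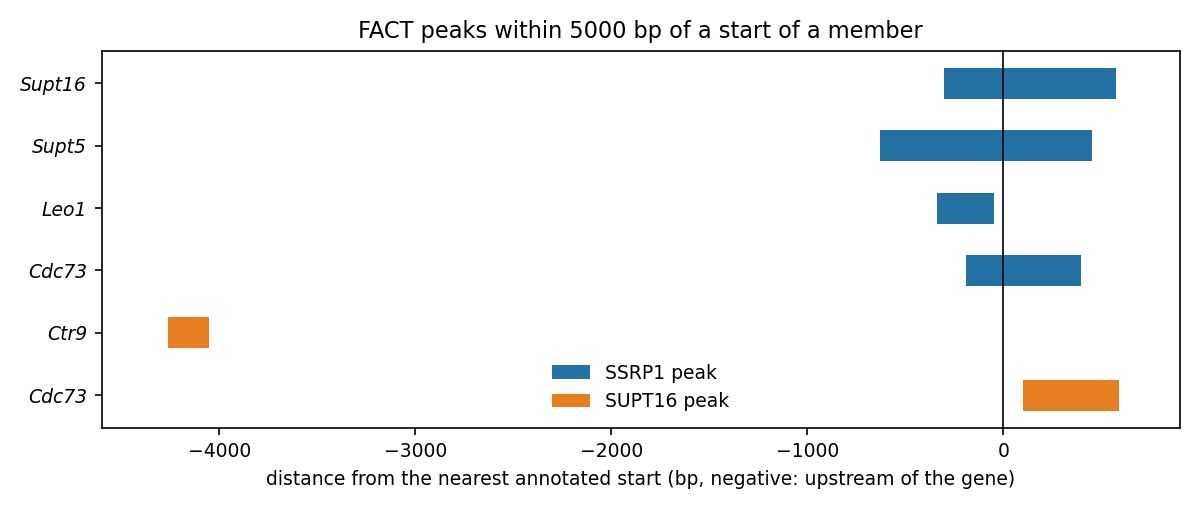
Peaks of SSRP1 (blue) and SUPT16 (orange) assigned to members, plotted as distance in bp from the nearest annotated start, with negative values upstream; 6 peaks within 5000 bp are drawn. The *Supt16*, *Supt5* and *Cdc73* peaks of SSRP1 cross the start, and the *Ctr9* peak of SUPT16 ends 4051 bp upstream. The *Leo1* peak stops 46 bp before its nearest start but lies inside the annotated gene.

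The 250 bases before the start are shown for the 4 members whose SSRP1 peak overlaps that window, since SSRP1 was mapped on this DNA. No SUPT16 peak overlaps these windows. They are RefSeq windows of GRCm38.p6, the assembly that mm10 names, written 5′ to 3′ on the strand of the gene. The *Supt16* window is chr14:52197240-52197489 (minus strand), the *Supt5* window chr7:28338720-28338969 (minus), the *Leo1* window chr9:75441274-75441523 (plus) and the *Cdc73* window chr1:143702894-143703143 (minus). The *Leo1* window precedes its downstream start and lies inside the annotated gene, and the *Supt5* window partly does. The SSRP1 peak covered all 250 bases of the *Supt16* and *Supt5* windows, 205 of *Leo1* and 191 of *Cdc73*. Capitals mark matches, on either strand, to one of 8 motifs searched: the GC box GGGCGG, the CCAAT box CCAAT, the ETS motif CCGGAAG, the NRF1 motif CGCATGCG, the YY1 motif AAGATGGC, the E box CACGTG, the CRE TGACGTCA and the TATA box TATAAA. None of the matches marked overlaps another.
*Supt16*: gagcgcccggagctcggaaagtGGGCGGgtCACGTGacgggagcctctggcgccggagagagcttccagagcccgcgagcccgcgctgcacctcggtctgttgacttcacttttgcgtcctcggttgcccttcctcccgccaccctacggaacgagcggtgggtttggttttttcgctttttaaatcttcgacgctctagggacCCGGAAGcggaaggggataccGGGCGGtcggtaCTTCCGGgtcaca
*Supt5*: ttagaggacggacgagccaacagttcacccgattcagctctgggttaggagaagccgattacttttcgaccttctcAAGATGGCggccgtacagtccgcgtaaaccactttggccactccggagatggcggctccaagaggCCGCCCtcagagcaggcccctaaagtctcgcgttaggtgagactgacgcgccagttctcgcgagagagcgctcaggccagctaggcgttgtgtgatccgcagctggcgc
*Leo1*: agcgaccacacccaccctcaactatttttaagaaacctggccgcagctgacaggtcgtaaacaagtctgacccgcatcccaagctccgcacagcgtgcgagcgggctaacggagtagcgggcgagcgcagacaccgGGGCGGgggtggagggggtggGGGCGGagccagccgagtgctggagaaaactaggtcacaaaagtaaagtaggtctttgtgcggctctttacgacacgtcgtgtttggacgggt
*Cdc73*: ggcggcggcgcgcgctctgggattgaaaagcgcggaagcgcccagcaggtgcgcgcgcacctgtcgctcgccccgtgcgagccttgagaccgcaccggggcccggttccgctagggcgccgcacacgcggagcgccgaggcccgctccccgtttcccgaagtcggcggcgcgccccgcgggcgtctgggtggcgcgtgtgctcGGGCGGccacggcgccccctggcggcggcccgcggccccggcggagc

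All 4 windows held a GC box, a motif found in 55.5% of the 14696 windows of genes in the expression table. *Supt16* had 2 GC boxes, 2 ETS motifs, present in 12.4% of windows, and 1 E box, present in 8.17%. The *Supt5* window had 1 YY1 motif, found in 1.82% of windows, and *Leo1* had 2 GC boxes. None of the 4 held a TATA box, a CCAAT box, an NRF1 motif or a CRE by these letters, which are in 6.96%, 35.8%, 2.87% and 2.46% of windows. CpG counts were 28 for *Supt16*, 22 for *Supt5*, 21 for *Leo1* and 47 for *Cdc73*, against a median of 14 over all windows and quartiles of 7 and 22. Windows of *Ssrp1*, *Supt6*, *Supt4a* and *Paf1*, which no assigned peak overlaps, had between 10 and 34 CpGs. *Ctr9* and *Iws1* had no entry.

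Expressed per kilobase of exon, the members spanned a wide range in control cells. *Ssrp1* was the highest, with 82.2 ± 6.15 per kb (SD, n = 4), followed by *Supt16* with 70.9 ± 4.90, *Supt4a* with 60.7 ± 2.89, *Supt5* with 54.3 ± 3.69, *Leo1* with 50.6 ± 6.77 and *Ctr9* with 50.3 ± 3.41. *Supt6* (26.6 ± 1.07) and *Paf1* (26.1 ± 0.901) came next, and *Cdc73* (15.2 ± 2.45) and *Iws1* (12.0 ± 0.267) were lowest. The ranges over libraries of *Supt4a* and *Supt5*, *Supt5* and *Leo1*, *Leo1* and *Ctr9*, *Supt6* and *Paf1*, and *Cdc73* and *Iws1* overlapped. Both genes of such a pair were measured in the same libraries, and their order within each library was not tested. *Ssrp1* stood above 95.4% of all genes per kb in control libraries and above 53.2% in KD libraries, where it was the lowest of the 10, while *Supt16* stood above 94.6% and 94.4%. *Supt4a* was the highest member in KD libraries, with 115 ± 5.25 per kb, and its range over libraries overlapped that of *Supt16* (112 ± 4.50).

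Knock-down of *Ssrp1* left a low but measurable level of its RNA. The library-size values of *Ssrp1*, the HMG-box subunit of FACT (chr2:85037120-85047114, plus strand), were 261, 230, 223 and 226 across the control libraries and 24.1, 26.4, 24.9 and 28.9 across the KD libraries, in the order of the replicate numbers, as throughout. Every KD value lay below every control value, as for 37.5% of all genes, and this matches the labels. The group means were 235 ± 17.6 and 26.1 ± 2.13 (SD, n = 4), a 9.00-fold lower mean. The log2 fold change was -3.15 (SE 0.07), with an adjusted p of 1.18e-22 by limma on log2(value + 0.5) over all 15384 genes. In that fit a gene was called at an absolute log2 fold change above 1 with an adjusted p below 0.01, and "rose" or "fell" is used for an adjusted p below 0.01 at any size.

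*Ssrp1* was the only member called, 1 of 10 beside 28.6% of all genes (8.07% higher and 20.6% lower in KD). By adjusted p alone 5 members rose and 2, *Ssrp1* among them, fell, beside 35.4% of all genes that rose and 37.3% that fell (72.8% together), so 7 of 10 members is close to the background. The median log2 fold change of the other 9 members was 0.42, against -0.03 over all genes and 0.22 over the 10765 genes with a mean value of at least 10. Several of these values depended on how libraries are scaled. Under CPM, in which reads were divided only by the total of the table and which was added after the data were seen, the all-gene median was -0.45. Under the deposited spike-in scaling it was 0.95, so member changes are also given relative to that median. For library-size, CPM and spike-in scaling in turn, *Supt6* was then at 0.18, 0.16 and 0.21 and *Iws1* at 0.46, 0.44 and 0.49. *Supt5* was at 0.49, 0.48 and 0.53, *Supt4a* at 0.95, 0.94 and 0.98 and *Paf1* at 0.49, 0.47 and 0.51. *Ctr9* was at -0.04, -0.06 and -0.01, *Leo1* at 0.18, 0.17 and 0.21 and *Cdc73* at -0.30, -0.31 and -0.28.

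The RNA of the FACT partner *Supt16* (chr14:52160419-52197239, minus strand) did not fall with that of *Ssrp1*. At the protein level the paper reports the opposite direction, with SUPT16 depleted along with SSRP1 by mass spectrometry. The RNA values of *Supt16* were 346, 307, 296 and 326 in the control libraries and 529, 481, 507 and 498 in the KD libraries. The groups did not overlap. The means were 319 ± 22.0 and 504 ± 20.2, a log2 fold change of 0.66 (SE 0.06, 95% interval 0.54 to 0.78, adjusted p = 5.24e-11 by limma). Relative to the all-gene median the change was 0.70 here, 0.68 under CPM, 0.73 under spike-in scaling and -0.02 under quantile normalisation, where the change itself was 0.03 (adjusted p = 0.455). Under none of the alternatives run was *Supt16* lower in KD. A correction of each library for exon length raised the change to 1.08, past the threshold for a call. The all-gene median was then 0.20, and the change relative to it 0.88.

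Within a library, the log2 ratio of *Supt16* to *Ssrp1* does not depend on a scaling by 1 factor per library. It was 0.41, 0.42, 0.41 and 0.53 in the control libraries and 4.43, 4.16, 4.32 and 4.08 in the KD libraries. The shift of 3.81 on the log2 scale is a 14.01-fold change in the ratio of the transcripts of both subunits, while the targeted gene alone fell by 3.15 on that scale. An exact two-sided permutation test gave p = 0.0286, the smallest that 4 against 4 libraries allow, and 0.0286 after adjustment over the 6 ratios tested. Because *Ssrp1* is the hairpin target and the denominator, its fall alone separates the groups. This p therefore says nothing about *Supt16*. Quantile normalisation and the exon-length correction are not of that kind, and the shift was 3.52 and 3.97 under them.

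The genes whose pattern over the 8 libraries was most like that of *Ssrp1*, by root mean square difference of log2 values centred on the control mean among 10764 genes, were *Vcan* (0.16), a matrix proteoglycan, *Itga8* (0.16), an integrin subunit, and *Ssc5d* (0.17). Their log2 fold changes of -3.15, -3.14 and -3.11 are close to that of the hairpin target because they were chosen for a near pattern. Chosen in the same way for *Supt16* were *Taf1* (0.02), the largest TFIID subunit, *Dhx36* (0.03), a G-quadruplex helicase, and *Ran* (0.03), the nuclear transport GTPase. Their log2 fold changes were 0.67, 0.67 and 0.65, near that of *Supt16* for the same reason.

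**Figure D2:**
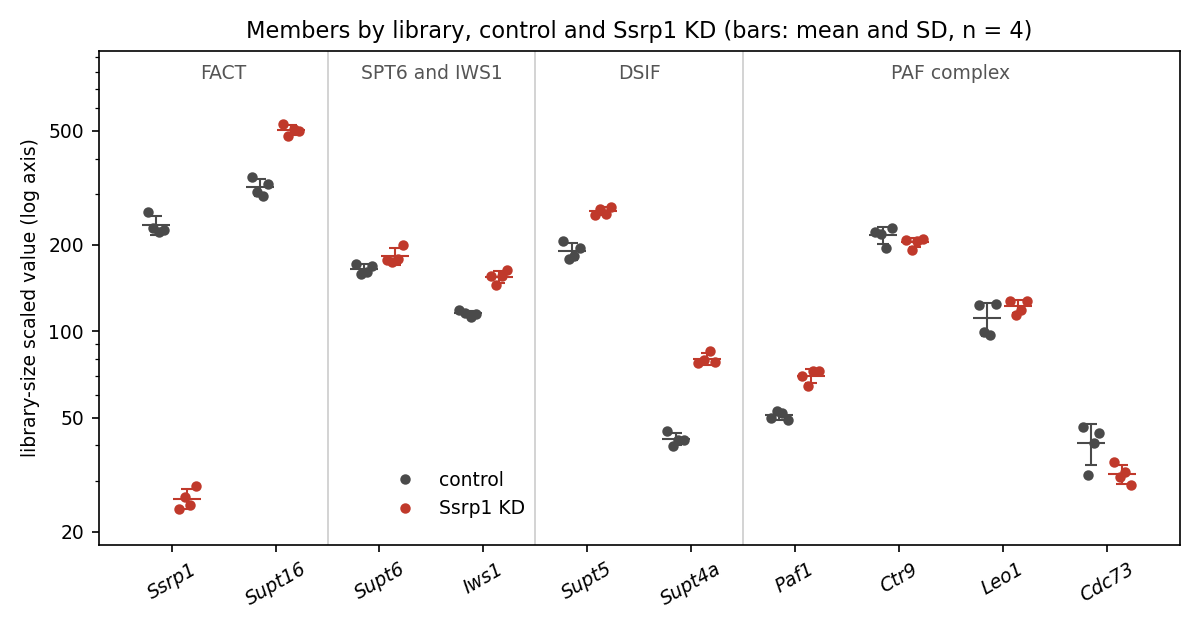
Library-size scaled values (log axis) of the 10 members in 4 control (grey) and 4 *Ssrp1* KD (red) libraries, grouped by complex; horizontal marks and bars give the mean and SD. *Ssrp1* falls from a mean of 235 to 26.1, *Supt16* and both DSIF genes lie higher in every KD library than in any control library, and the groups overlap for *Ctr9*, *Leo1* and *Cdc73*.

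The histone chaperone gene *Supt6* (chr11:78206749-78245972, minus strand) had no direction that held across scalings. Its values were 172, 158, 161 and 169 in control and 177, 174, 179 and 200 in KD libraries. Although every KD value was above every control value, as for 35.8% of all genes, the log2 fold change was 0.14 (SE 0.06, interval 0.02 to 0.26, adjusted p = 0.0264), and it turned to -0.29 under CPM (adjusted p = 2.22e-05) and -0.35 under quantile normalisation (adjusted p = 5.78e-06). It was 0.73 after the exon-length correction (adjusted p = 3.14e-11) and 1.17 under spike-in scaling, where it was called.

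*Iws1*, on chromosome 18, whose product binds SPT6, had values of 119, 116, 112 and 115 in control and 155, 145, 155 and 163 in KD libraries. Its groups were well apart at this scaling, and it rose by 0.42 on the log2 scale (SE 0.06, adjusted p = 1.32e-07), but stood at -0.01 under CPM (adjusted p = 0.878) and 0.00 under quantile normalisation. With 9623 exon bases it has the longest transcript model of the 10, and it reached 1.30 after the exon-length correction (1.09 relative to the all-gene median). The ratio of *Supt6* to *Iws1* fell from a mean log2 of 0.51 ± 0.05 to 0.24 ± 0.05, a difference of -0.28 (exact permutation p = 0.0286, adjusted 0.0286), so the partners did not change by the same factor.

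Both DSIF genes rose, *Supt5* with a turn of sign under quantile normalisation. *Supt5* (chr7:28314891-28338804, minus strand), which encodes the large subunit, had values of 207, 178, 182 and 195 in control and 254, 267, 256 and 272 in KD libraries. All KD libraries were above all controls, with a log2 fold change of 0.46 (SE 0.06, adjusted p = 3.91e-08), and the value turned to -0.07 (adjusted p = 0.165) under quantile normalisation and was 0.03 (adjusted p = 0.547) under CPM.

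*Supt4a* (chr11:87737551-87743623, plus strand), the small zinc-finger subunit, had values of 44.8, 39.9, 41.8 and 41.9 in control and 77.2, 79.2, 85.3 and 78.3 in KD libraries. The libraries separate by group with nothing between 44.8 and 77.2. This was the largest rise of the 10, 0.92 on the log2 scale (SE 0.07, interval 0.78 to 1.06, adjusted p = 1.002e-12), just under the fold needed for a call. It kept its sign under all scalings run, from 0.49 under CPM and 0.66 under quantile normalisation to 1.93 under spike-in scaling, where it was called.

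*Supt4b*, an intronless gene on chromosome 10 (chr10:31413726-31414435), is a near-identical copy. The exon sequences of both genes aligned over 474 bases with 470 identical (99.2%), so reads from that stretch could have been split between them. *Supt4b* had values of 20.4, 16.01, 19.9 and 19.0 in control and 43.1, 42.2, 46.3 and 40.6 in KD libraries, and it passed the call with a log2 fold change of 1.18 (SE 0.09, adjusted p = 3.32e-12). The values of both genes are therefore uncertain as separate quantities. The log2 ratio of *Supt5* to *Supt4a* lay between 2.11 and 2.21 in control and between 1.58 and 1.79 in KD libraries. That is a difference of -0.46, or 1.37-fold less *Supt5* for each *Supt4a* (exact permutation p = 0.0286, adjusted 0.0286). *Supt4a* is also the shortest member, with 693 exon bases, and after the exon-length correction *Supt4a* stood at 0.57 and *Supt5* at 0.81, and the difference in their ratio turned to 0.24 (exact permutation p = 0.0286, adjusted 0.0343).

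The genes of the PAF complex did not move as a block. *Paf1* (chr7:28392996-28399383, plus strand), 54192 bp from *Supt5* on the same chromosome, had values of 50.0, 52.8, 51.8 and 49.0 in control and 69.6, 64.4, 72.5 and 72.7 in KD libraries. It rose by 0.45 on the log2 scale (SE 0.07, adjusted p = 6.68e-07) without overlap of the groups, and stood at 0.02 (adjusted p = 0.759) under CPM and 0.17 (adjusted p = 0.0323) under quantile normalisation.

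*Ctr9* (chr7:111028951-111056377, plus strand), the tetratricopeptide scaffold, had values of 222, 219, 195 and 229 in control and 209, 193, 207 and 209 in KD libraries. The groups overlapped, and the log2 fold change was -0.08 (interval -0.20 to 0.04, adjusted p = 0.212). It was lower under CPM (-0.51, adjusted p = 1.05e-09) and under quantile normalisation (-0.62, adjusted p = 2.59e-09) and higher after the exon-length correction (0.33, adjusted p = 0.000123). Values of *Leo1* (chr9:75441015-75466432, plus strand) were 123, 99.1, 97.2 and 124 in control and 128, 114, 119 and 128 in KD libraries, with control replicates 2 and 3 low and the groups overlapping. Its log2 fold change was 0.15 (interval -0.01 to 0.30, adjusted p = 0.0713), and -0.28 under CPM.

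*Cdc73* (chr1:143603276-143702893, minus strand), which encodes the tumour suppressor parafibromin, had values of 46.4, 31.5, 40.9 and 44.2 in control and 35.0, 31.1, 32.2 and 29.0 in KD libraries. Only control replicate 2 reached into the KD range. *Cdc73* fell by 0.34 on the log2 scale (SE 0.10, interval -0.54 to -0.14, adjusted p = 0.00255) and was -0.76 under CPM, but 0.67 (adjusted p = 0.0272) under spike-in scaling, still 0.28 below the all-gene median of that scaling. It did not pass after the exon-length correction (-0.10, adjusted p = 0.369) or in a fit without the trend (-0.34, adjusted p = 0.0305). Leaving out 1 library moved it between -0.46 and -0.27, and the adjusted p no longer passed without control replicate 1 (-0.27, limma adjusted p = 0.0116), control replicate 4 (-0.30, 0.0144) or KD replicate 4 (-0.30, 0.0145).

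Set against *Paf1* in the same library, all 3 other subunits were lower in KD cells. The difference in the log2 ratio to *Paf1* was -0.53 for *Ctr9*, from 2.07 ± 0.13 to 1.54 ± 0.04, -0.31 for *Leo1*, from 1.11 ± 0.24 to 0.80 ± 0.07, and -0.79 for *Cdc73*, from -0.33 ± 0.29 to -1.12 ± 0.14. Each had an exact permutation p of 0.0286 (adjusted 0.0286), with no overlap of the groups. The 3 ratios share *Paf1* and are not independent. Those of *Leo1* and *Cdc73* no longer passed when any 1 KD library was left out, with adjusted p of up to 0.171 and 0.0686, and that of *Leo1* did not pass after the exon-length correction (-0.25, exact permutation p = 0.0857). Without KD replicates 1 to 4 in turn, the values were -0.33, -0.31, -0.27 and -0.31 for *Leo1* and -0.84, -0.82, -0.78 and -0.73 for *Cdc73*.

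**Figure D3:**
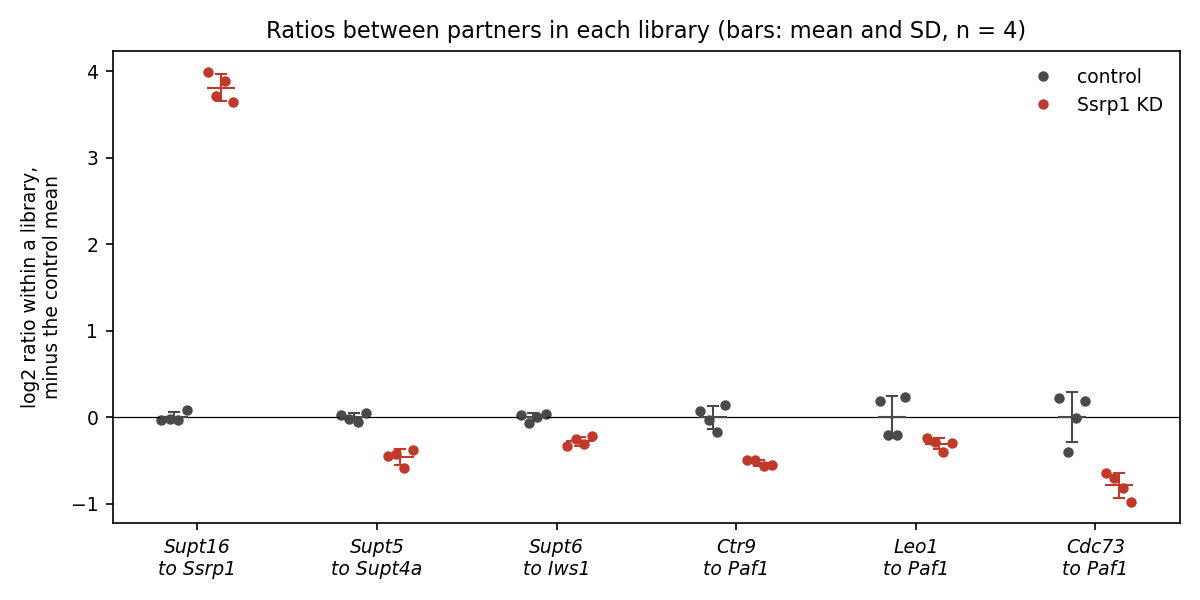
Log2 ratio of 2 partner genes within a library, minus the mean of the control libraries, for 4 control (grey) and 4 KD (red) libraries; marks and bars give the mean and SD. The *Supt16* to *Ssrp1* ratio is 3.81 higher in KD, and the other 5 ratios are lower by 0.28 to 0.79, of which *Supt5* to *Supt4a* turned to 0.24 after the exon-length correction.

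**Figure D4:**
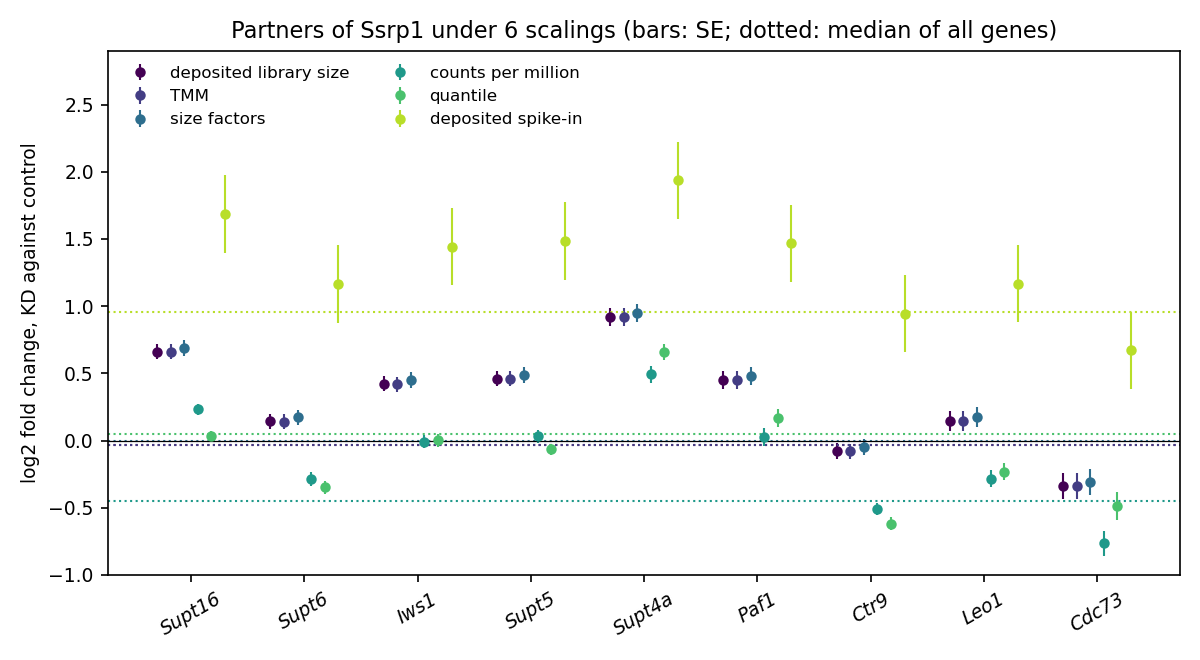
Log2 fold change of the 9 members other than *Ssrp1*, KD against control, under 6 scalings (colours; bars are SE), with the all-gene median of each scaling as a dotted line. *Supt16*, *Supt4a* and *Paf1* are above 0 under all 6, and values of the other 6 members cross 0. The all-gene median is 0.95 under spike-in scaling, whose factor was highest in the deepest libraries.

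The other elongation genes, a list of 41 with a value, had a median log2 fold change of 0.27, against 0.28 for the 10 members and -0.03 for all genes. Over genes with a mean value of at least 10 the medians were 0.29 for 39 of the 41 and 0.22 for all. Of these 41, 24 rose and 12 fell by adjusted p alone, beside 35.4% and 37.3% of all genes, and 5 did not pass. With a mean value of at least 10, 24 of 39 rose and 10 fell, beside 5198 and 2812 of all 10765 genes. Of the full list of 41, 2 were called higher and 2 lower, beside 8.07% and 20.6% of all genes. *Larp7*, which binds and protects the 7SK RNA, rose from 58.7 ± 4.66 to 146 ± 3.25 (log2 fold change 1.31, SE 0.06, adjusted p = 1.93e-16). *Tcea3*, a TFIIS paralogue that helps stalled polymerase restart, rose from 23.3 ± 2.96 to 54.1 ± 1.55 (1.21, SE 0.09, adjusted p = 6.89e-13).

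*Eaf2*, an ELL-associated factor, fell from a low 5.77 ± 0.401 to 2.59 ± 0.228 (-1.02, SE 0.19, adjusted p = 2.43e-05), and this turned to 0.12 under quantile normalisation. Under CPM 0 of the 41 were called higher and 6 lower, and under spike-in scaling 27 were called higher and 0 lower. All genes moved with these scalings too, with 2.23% called higher and 30.5% lower under CPM and 48.1% higher and 7.03% lower under spike-in scaling. By adjusted p alone, 8 of the 41 rose and 17 fell under CPM, beside 2764 and 8692 of all 15384 genes.

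Counts by role are of 4 to 9 genes each at library-size scaling, where 35.4% of all genes rose and 37.3% fell. The 8 genes of P-TEFb, 7SK and pause release had 3 rises, with *Cdk9*, the P-TEFb kinase, at 0.67. Of the 4 NELF genes, whose products hold polymerase at the pause, 3 rose and 1 fell: *Nelfe* was at 0.87 and *Nelfb* at 0.70, while *Nelfa* was at -0.46 and turned to 0.56 under spike-in scaling. The 9 genes of the super elongation complex split into 4 rises and 4 falls, with *Ell* at -0.67 and *Aff1* at -0.61, values that became 0.34 and 0.41 under spike-in scaling. TFIIS and Elongin had 5 rises among 6, among them all 3 Elongin subunits, *Eloa* (0.68), *Elob* (0.69) and *Eloc* (0.58), which stayed above 0 under every scaling run.

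Among 7 genes of PAF complex partners and H2B ubiquitylation, 6 rose and 1 fell. The H2B ubiquitin ligase genes *Rnf20* and *Rnf40* were at 0.59 and 0.54, and *Ube2a*, the conjugating enzyme, was at 0.74, each above 0 under every scaling run. *Rtf1*, the more loosely held PAF subunit, was at 0.33 and turned to -0.10 under CPM. *Wac*, which links RNF20 and RNF40 to polymerase, was at -0.29, and at 0.72 under spike-in scaling. Of the 7 genes for CTD kinases, histone methylation and remodelling, 3 rose and 4 fell, the falls being *Ccnk* (-0.71), *Dot1l* (-0.56), *Setd2* (-0.39) and *Cdk12* (-0.32), and under spike-in scaling these stood at 0.29, 0.46, 0.63 and 0.70.

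**Figure D5:**
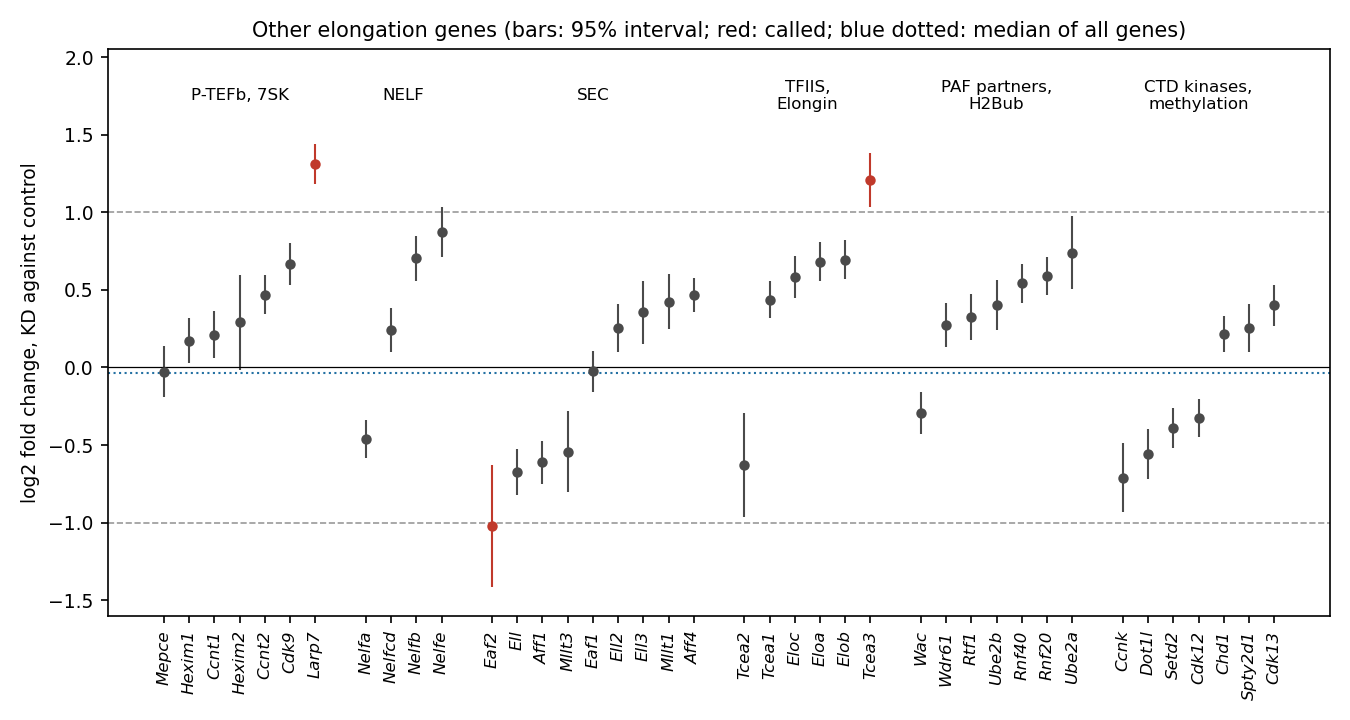
Log2 fold change, KD against control, of 40 of the 41 other elongation genes grouped by role, with 95% intervals from limma; red marks genes past both thresholds, dashed lines the fold threshold and the dotted line the median of all genes at -0.03. *Larp7* and *Tcea3* lie above 1 and *Eaf2* below -1.

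In chromatin RNA of mESCs without KD, transcripts still bound to chromatin were counted over exons, in 2 libraries with totals of 3441643 and 3393923 counts, of which 33.8% belonged to *Snord49a* and *Rn45s*. All 10 members had counts in both libraries. *Supt16* had the most, with 89 counts (exact 95% Poisson interval 71.5 to 110) and 122 (101 to 146), and *Ssrp1* had 46 (33.7 to 61.4) and 62 (47.5 to 79.5). *Supt6* had 74 and 81, *Iws1* 58 and 94, *Supt5* 43 and 44, *Ctr9* 33 and 42, *Cdc73* 24 and 45 and *Leo1* 34 and 28. *Paf1* had 16 and 9 counts, and *Supt4a* only 4 in each library (1.09 to 10.2), while *Supt4b* had 1 and 0. These intervals cover counting error only.

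Ranked by mean CPM among 13474 genes with a count in both libraries, the members had a median percentile of 88.6, from 27.0 for *Supt4a* and 61.9 for *Paf1* to 96.8 for *Supt16*. That order is not corrected for length. Per kilobase, *Supt16* (6.88 CPM per kb) and *Ssrp1* (5.54) were the highest of the 10, as they were in control RNA-seq, and *Supt4a* (1.69) and *Paf1* (1.87) the lowest. *Supt4a* stood above 93.6% of genes per kb in control RNA-seq and above 69.5% in chromatin RNA, and *Cdc73* above 69.1% and 88.0%. The tables were made separately and cover different sets of genes, so no test was made between them, and with 4 counts in each library the place of *Supt4a* is imprecise.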

How the data were processed

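RNA was measured in 4 control and 4 KD libraries with spike-ins. The authors aligned reads with STAR 2.5.1b to mm10, counted them with featureCounts, and deposited a normalised signal per gene, scaled to library size and to spike-ins. The count table of chromatin RNA was deposited raw (STAR 2.4.1b and featureCounts). For ChIP-seq, the authors aligned with Bowtie2 2.2.6, called peaks on pooled replicates with PePr, and used ChIP-Enrich for the nearest gene. Further deposited tables, on the KD, on NPCs and on exon usage, hold only the authors' fold changes and p-values and were not used, so NPCs and exon usage were not analysed here.

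Library-size values are whole multiples of 1 read, and 100% of values gave whole reads within 0.1. One read was worth 0.0580 to 0.179. The test was limma 3.58.1 with trend on log2(value + 0.5), over all 8 libraries and with no covariate, with Benjamini-Hochberg adjustment over 15384 genes. Fold changes on this scale understate those of low genes. The TMM alternative below came close to repeating the deposited library-size scaling, with *Supt16* at 0.660 against 0.662. Ratios of partners were tested by exact permutation, with a threshold of 0.05 for the adjusted p. Symbols and exon lengths came from the chromatin table, which covers all genes, and the RefSeq genes of GRCm38 lay within 1000 bp of them in 99.9% of 14565 cases. Of the 10 members, 8 matched RefSeq promoter windows. Peak positions are as deposited. The labels number the replicates, which the study's methods call biological.

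Alternatives were pseudocounts of 0.1 and 2, a mean value of at least 10, TMM, size factors, quantiles, spike-ins, CPM over the genes of the table, edgeR 4.0.16 quasi-likelihood and DESeq2 1.42.0 on the reads recovered from deposited values, no trend, a loess correction for exon length, a block by replicate number and leaving out each library in turn. In simulated data for KD against control with 200 of 13686 genes changed by 2 or 3 on the log2 scale, limma, edgeR and DESeq2 recovered 100% with 0 false calls. Both folds lie past the threshold of 1 for a call, and 4405 of 15384 genes were called in the data. Recovery at folds near that threshold, or with so large a share of genes changed, was not tested. Replicates of a group differed by more than counting noise (chi-square divided by its degrees of freedom 1.88 to 6.62). The members and lists were chosen with earlier results of these data known. Named were the 10 members, called genes of the elongation list and examples of each role, *Supt4b*, markers, and for *Ssrp1* and *Supt16* the 3 genes with the nearest pattern. The examples of each role that were not called, and *Tnks1bp1*, were chosen after their values were seen. Of the listed genes, 2 are not reported here by name. R 4.3.3, Python 3.11.15, numpy 2.4.6, pandas 2.3.3, scipy 1.17.1, Biopython 1.88 and matplotlib 3.10.9 were used.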

Additional observations from a re-analysis of the deposited data

Results flagged for a closer look

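Among 32 groups of 4 libraries tested (each member and each ratio, in control and in KD), 2 held a library far from the other 3, and chance flags about 1 in 20. *Ctr9* was lower in KD replicate 2 (193) than in the other KD libraries (207 to 209), a gap of 0.8294 of the range of the group. The log2 ratio of *Supt16* to *Ssrp1* was higher in control replicate 4 (0.53) than in the other controls (0.41 to 0.42), a gap of 0.923 of the range. The shift of that ratio between groups, 3.81, is far larger than either range.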

How the results depend on the processing

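The 4405 genes called became 2103 with a mean value of at least 10, where fewer genes were tested (10765), 8476 under spike-in scaling and 11192 by adjusted p alone. The 1 member called became 8 under spike-in scaling, where 48.1% of all genes were called higher and 7.03% lower. After the exon-length correction 3 members were called, beside 12.0% of all genes higher and 16.4% lower. By adjusted p alone there were 7, beside 72.8% of all genes. The 4 elongation list genes called became 27 under spike-in scaling, 2 under quantile normalisation and 36 by adjusted p alone. Under quantile normalisation 9.54% of all genes were called higher and 10.6% lower. With each library left out, 4254 to 4635 genes, 1 member and 3 to 4 list genes were called, with *Eaf2* at -0.996 and not called without control replicate 1. Spike-in scaling, the exon-length correction and quantile normalisation moved the share of higher calls from 28.2% to 87.2%, 42.3% and 47.4%, CPM to 6.81% and the mean value filter to 54.3%. The cause was not tested.

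Directions turned for *Supt6* (-0.35 under quantile normalisation, -0.29 under CPM), *Iws1* (-0.0088 under CPM), *Supt5* (-0.066 under quantile normalisation), *Leo1* (-0.23 under quantile normalisation, -0.28 under CPM), *Ctr9* (0.94 under spike-in scaling, 0.33 after the exon-length correction) and *Cdc73* (0.67 under spike-in scaling). CPM was chosen after seeing the data. The all-gene median was itself -0.45 under CPM and 0.95 under spike-in scaling. Relative to it, *Supt6* (0.16), *Iws1* (0.44) and *Leo1* (0.17) did not turn under CPM. Nor did *Ctr9* (-0.01) and *Cdc73* (-0.28) under spike-in scaling. Relative to the median of each setting, *Supt6* (-0.40), *Supt5* (-0.12) and *Leo1* (-0.28) still turned under quantile normalisation, and *Ctr9* (0.12) after the exon-length correction.

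Ratios kept their direction with both other pseudocounts, spike-in scaling, quantile normalisation, the block and each library left out. The exon-length correction turned *Supt5* to *Supt4a* to 0.24, and *Leo1* to *Paf1* no longer passed (-0.25). Quantile normalisation and the exon-length correction were added for the ratios after seeing the data. With the replicate block, an exact sign-flip test of 4 differences cannot go below p = 0.125, and the values 3.81 (*Supt16* to *Ssrp1*), -0.46 (*Supt5* to *Supt4a*), -0.28 (*Supt6* to *Iws1*), -0.53, -0.31 and -0.79 (*Ctr9*, *Leo1* and *Cdc73* to *Paf1*) all had an exact p of 0.125, so this says nothing about their stability. Same-numbered libraries did not deviate together (correlations -0.06 to 0.02). Whether they share a transfection was not tested, and the labels give only a number. The block left the calls at 4405 genes, 1 member and 4 list genes. With each library left out the ranges were 3.75 to 3.86, -0.49 to -0.42, -0.30 to -0.26, -0.59 to -0.48, -0.37 to -0.23 and -0.92 to -0.71.

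SSRP1 peaks were given to 3 members (from 5; 17.6% of all genes) with peaks of at least 500 bp, and SUPT16 peaks to 0 (from 2; 6.08%) with peaks of at least 500 bp, and to 1 within 1000 bp of a start (15.6%) or overlapping the gene (16.8%). The median percentile in chromatin RNA was 94.4 with no filter and 74.2 with at least 10 counts in both libraries (8 members), and 86.2 to 91.8 with a library left out.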
